A study of Mus musculus with 43 samples.

Results

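The comparison set memory CD4 T cells sorted 30 days after transfer against cells of the same antigen-free schedule sorted 10 days after transfer. It used every array titled none at either day, which were 10 of the 43 arrays of the series, 5 on day 30 and 5 on day 10. The cells were AND T cells, which carry a transgenic receptor for a peptide of moth cytochrome c, lack Rag2 and bear CD45.1. They had been transferred into iMCC mice, whose 2 transgenes make dendritic cells present that peptide under the control of doxycycline. An anti-CD40 antibody and 100 µg/ml doxycycline in the drinking water were given from the day before transfer. In the none groups the drug was withdrawn on day 3, so that the cells met antigen briefly and then went on without it until day 30 or day 10. The labels describe cells of this schedule as developing into Th1 memory cells.

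Beside these stood the low groups, with 10 µg/ml doxycycline from day 3, and the int groups, with 100 µg/ml throughout, each sorted at the same times (low, 5 arrays on day 30 and 5 on day 10; int, 5 and 4). Naive AND cells, sorted 3 days after transfer into mice without the transgenes and without doxycycline (5 arrays), gave a further level to set values against. All transferred cells share the receptor, the Rag2 deficiency and the sort for CD4, CD90.2 and CD45.1. The receptor is a single fixed one, so the cells model 1 clone and not a mixed repertoire. The day 30 cells were sorted in a second series. Time after transfer and sort series therefore cannot be told apart in any result below. Whether the arrays of a group stem from different animals is not stated in the labels. The p-values therefore rest on the spread among arrays, pooled over the 9 groups of the series, and that spread may be technical.

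After antigen is cleared, most activated CD4 T cells die and a few persist as memory cells. These cells rest outside the cell cycle, live on IL-7 and related cytokines received through Il7r, and rely on Bcl2 against cell death. They keep the program of their effector stage, which in Th1 cells includes T-bet (Tbx21), Cxcr3 and a chromatin state at Ifng that allows rapid recall. Resting lymphocytes are generally held to depend on mitochondrial respiration more than on glycolysis.

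Values are the deposited log2 signals, so that a difference of 1 is a 2-fold change, and every difference is day 30 minus day 10, given ± SE from the fit where one is printed. Group levels are means ± SD of 5 arrays. A gene was called where limma's adjusted p over 22180 genes was under 0.05. The sort markers were high in both groups. Cd4 averaged 9.21 ± 0.27 on day 30 and 9.46 ± 0.22 on day 10, Thy1 (CD90) 10.80 ± 0.21 on day 30 and 11.20 ± 0.09 on day 10, Ptprc (CD45) 11.04 ± 0.10 on day 30 and 11.06 ± 0.19 on day 10, while Rag2 lay at 3.04 ± 0.29 on day 30 and 2.59 ± 0.14 on day 10 and Cd8a at 3.23 ± 0.44 on day 30 and 3.16 ± 0.14 on day 10. Of these, Thy1 alone was called (-0.40 ± 0.11, adjusted p = 0.0292, 6 of the 10 fits that each left out 1 array). One day 10 array, replicate 4, correlated with the mean of the others at 0.9763, against 0.9853 to 0.9911 for the remaining day 10 arrays and 0.971 to 0.9775 for the day 30 arrays.

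Between day 10 and day 30 limma called 761 genes (3.43% of those tested), 334 higher on day 30 (1.51%) and 427 lower (1.93%). Only 32 of the higher and 122 of the lower calls reached 2-fold, and 4012 genes (18.1%) had an unadjusted p under 0.05. All day 30 arrays lay above all day 10 arrays for 1.71% of genes and below them for 2.42%. The direction went with the level of a gene. Among 7266 genes with a mean under 3, 133 were called higher and 3 lower, while among 1709 genes between 6 and 7 the counts were 27 and 101. In the level classes from 5 up, lower calls ran from 4.53% to 9.25% of the genes. Higher calls ran there from 0.701% at 5 to 6 to 12.7% at 10 and over. Higher calls had a median level of 3.6 and 174 of them lay under 4, where most probe sets see little transcript. Olfactory receptor genes, which T cells are not known to use, had 22 higher (2.02%) and 2 lower calls (0.184%) of 1088 and a median difference of 0.14. Of all genes with a mean under 3, 1.83% were called higher and 0.0413% lower, with a median of 0.11. The median difference was 0.02 over all genes and -0.14 over the 6329 genes that reached a mean of 5 in 1 of the groups. After quantile normalization the latter was -0.03 and 547 genes were called, 303 higher and 244 lower, so the balance of directions depended on the scaling. Without day 10 replicate 1, 2, 3 or 5 the count fell to 366, 446, 403 or 463, and without replicate 4 it was 867. In all 10 fits that left out 1 array of these groups, 219 genes kept their call, 89 higher and 130 lower.

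**Figure D1:**
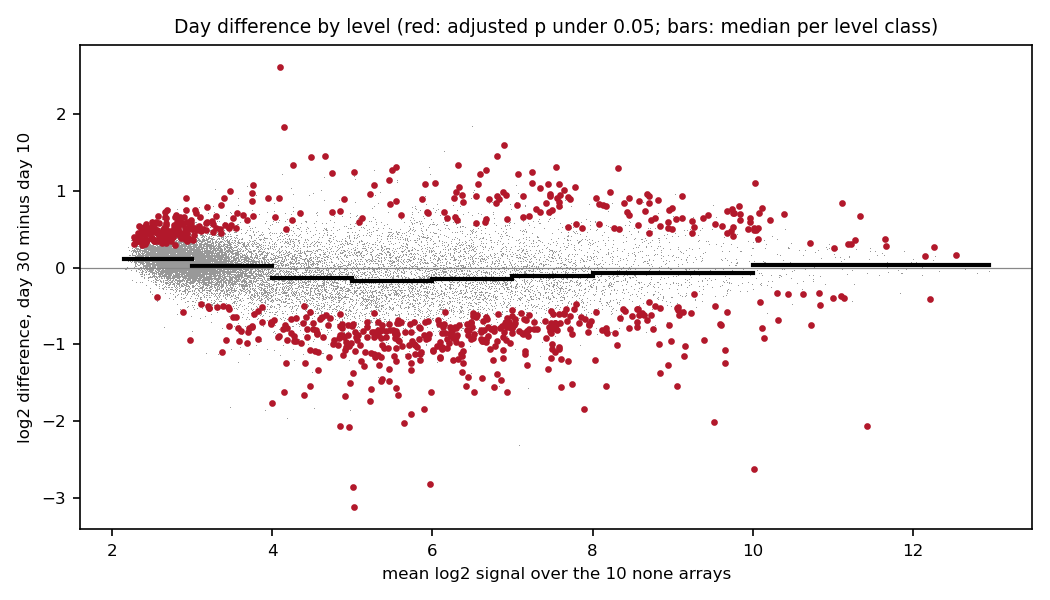
Day difference (log2, day 30 minus day 10, vertical axis) of each gene against its mean log2 signal over the 10 none arrays (horizontal axis); red points are the 761 called genes and black bars the median of each level class. Higher calls crowd at levels under 4, and the medians between levels 4 and 10 lie under 0.

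The cells kept with low or int antigen differed between the days in part in the same way, as measured on arrays that none of the none values share. Of the 334 genes called higher without antigen, 295 also had a positive difference with low and 284 with int antigen. Of the 427 called lower, 404 and 359 had a negative one. The sizes were smaller there: the lower calls had a median of -0.84 without antigen, of -0.50 with low and of -0.30 with int antigen, and the higher calls of 0.57, 0.22 and 0.21. Genes chosen for a call in one comparison have inflated values in it, so the smaller sizes elsewhere carry no test. Direction went with level in all 3 comparisons. Genes under level 3 had medians of 0.11 without, 0.12 with low and 0.07 with int antigen, and those from 5 to 6 of -0.18, -0.21 and -0.11. The part of level in the shared directions was not tested. Over all 22180 genes the day differences without antigen had a Pearson correlation of 0.521 with low and 0.374 with int. The low comparison called 636 genes (2.87%), of which 151 were shared calls in the same direction (19.8% of the none calls and 23.7% of the low calls). The int comparison called 158 (0.712%), with 51 shared (6.7% and 32.3%).

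Of 24 measured Th1 genes none was called in either direction, a share close to the 3.43% of all genes, so the count says little about the list. Their median was -0.15 and 16 of 24 had a negative value. The furthest from 0 was Bhlhe40, a transcription factor of cytokine-producing T cells, at 3.83 ± 0.18 on day 30 and 4.74 ± 0.44 on day 10, with no overlap (-0.92 ± 0.36, adjusted p = 0.151). Il12rb2, a chain of the IL-12 receptor, averaged 3.13 ± 0.23 on day 30 and 3.78 ± 0.26 on day 10 (-0.65 ± 0.23, adjusted p = 0.115). Ccl5, the chemokine that effector and memory T cells store as transcript, measured 11.31, 11.09, 11.15, 11.52 and 10.87 on day 30, against 10.83, 11.37, 10.87, 11.33 and 11.03 on day 10. The groups overlapped throughout. Naive cells averaged 5.94 ± 2.17, with single arrays from 3.81 to 9.18. Cxcr3, the receptor that takes Th1 cells to inflamed tissue, averaged 9.11 ± 0.32 on day 30 and 9.34 ± 0.21 on day 10 (difference -0.23, 95% interval -0.62 to 0.16). Ly6c2, a surface marker of Th1 memory cells, averaged 10.64 ± 0.30 on day 30 and 10.67 ± 0.37 on day 10.

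Tbx21, which encodes T-bet, measured 6.64, 6.60, 7.18, 6.38 and 5.33 on day 30, against 7.28, 6.93, 6.74, 6.95 and 7.0 on day 10. The means differed by -0.55 (interval -1.03 to -0.08, adjusted p = 0.189 by limma), and the lowest day 30 array, replicate 5, lay apart from the rest. Ifng averaged 4.99 ± 0.42 on day 30 and 4.54 ± 0.63 on day 10, a difference within the spread (0.44, interval -0.24 to 1.13, adjusted p = 0.519). With low antigen the same transcript was 2.18 higher on day 30 than on day 10 (adjusted p = 0.000134), but the difference between these day changes did not pass its test (adjusted p = 0.337). The intervals of these genes leave room for changes of up to about 1 on the log2 scale.

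Cytotoxic and effector genes gave 1 higher call (2.94%, against 1.51% of all genes) and 0 lower among 34 measured, with a median of 0.02. The single call, Klrb1b, an NK cell receptor of the NKR-P1 family, lay near the floor, at 3.24 ± 0.45 on day 30 and 2.72 ± 0.12 on day 10 (0.51 ± 0.14, adjusted p = 0.0373), and held in 3 of 10 fits without 1 array. Gzmb, the cytotoxic protease granzyme B, averaged 3.18 ± 0.24 on day 30 and 4.03 ± 0.42 on day 10, and Gzmk 3.95 ± 0.38 on day 30 and 4.96 ± 0.81 on day 10, without a call (adjusted p = 0.176 and 0.134). Inhibitory receptors (18 measured), apoptosis inducers (18) and Th2 and Th17 genes (13) had no call in either direction. Of all genes 3.43% were called, so counts of 0 in lists this short say little about them. Pdcd1, which encodes PD-1, averaged 4.81 ± 0.59 on day 30 and 4.89 ± 0.33 on day 10, and Lag3 4.95 ± 0.71 on day 30 and 5.09 ± 0.51 on day 10.

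Among 20 measured genes of memory cytokine signalling and survival, 1 was called higher (5%, against 1.51% of all genes) and 3 lower (15%, against 1.93%). A mean of 5 was reached by 16 of the 20, and the level classes from 5 up had 4.53% to 9.25% lower calls. Values of the list ran from -0.92 to 1.25. Il7r measured 10.31, 10.32, 10.44, 10.23 and 10.13 on day 30, against 9.92, 10.49, 10.66, 9.94 and 10.24 on day 10. The day 30 arrays lay inside the range of day 10 (difference 0.04, interval -0.80 to 0.87), and both groups lay far above the naive mean of 7.52. The interval rests on the spread pooled over all 9 groups. The SD of Il7r was 0.115 on day 30 and 0.328 on day 10 in the none groups, against 1.02 and 1.29 in the int groups. Bcl2 averaged 7.35 ± 0.43 on day 30 and 7.07 ± 0.37 on day 10, and Il2rb, the chain shared by the IL-2 and IL-15 receptors, 8.71 ± 0.27 on day 30 and 8.92 ± 0.22 on day 10, neither of them called.

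The calls were Cish, Pim1, Il21r and Xiap. Cish, a STAT5-induced inhibitor of cytokine signalling, measured 5.84, 5.39, 5.04, 5.38 and 6.60 on day 30, against 4.65, 4.66, 4.26, 3.90 and 4.52 on day 10, with no overlap (1.25 ± 0.34, adjusted p = 0.0299). Pim1, a survival kinase that STAT5 also induces, was lower on day 30, at 4.13 ± 0.29, against 4.99 ± 0.42 on day 10 (-0.86 ± 0.22, adjusted p = 0.0225). So were Il21r, the receptor for the follicular helper cytokine IL-21 (-0.92 ± 0.22, adjusted p = 0.0121), and Xiap, a caspase inhibitor (-0.72 ± 0.21, adjusted p = 0.0429). The calls held in 4, 6, 9 and 3 of the 10 fits without 1 array for Cish, Pim1, Il21r and Xiap. Without day 30 replicate 2 Il21r had adjusted p = 0.0569, and Pim1, Il21r and Xiap lost their calls when only these 10 arrays were fitted.

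**Figure D2:**
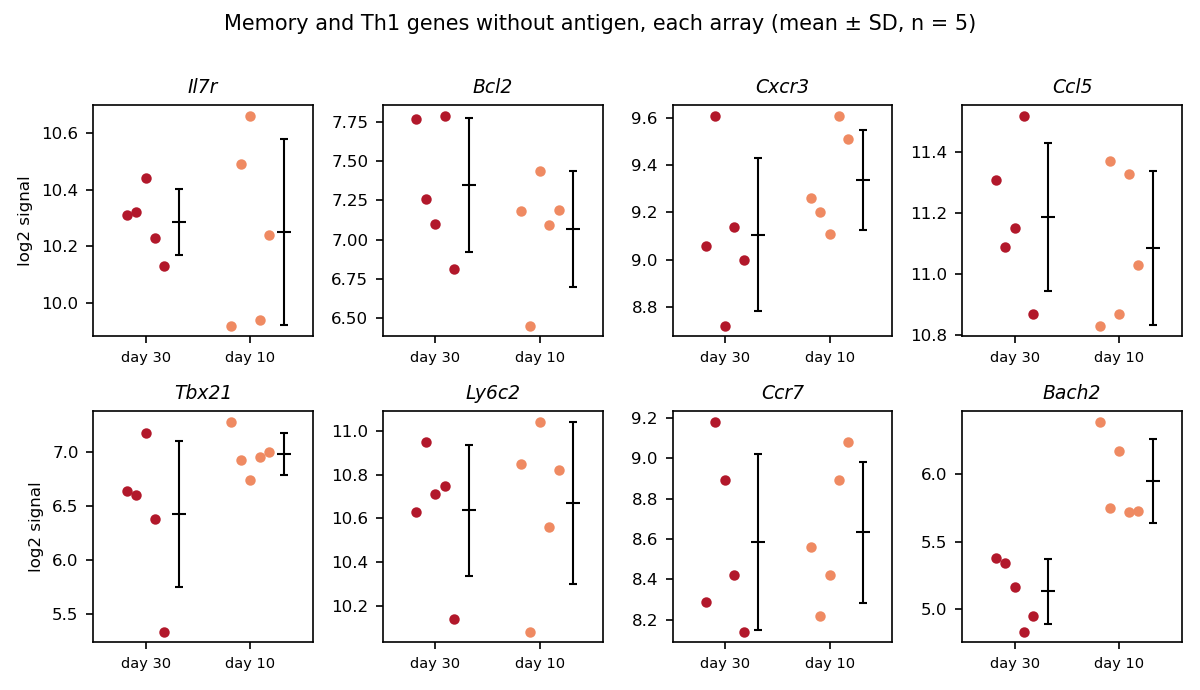
Log2 signal (vertical axis) of memory and Th1 genes in each none array, day 30 left of day 10, with the mean and SD of 5 arrays at the right of each group. The groups overlap for Il7r, Bcl2, Cxcr3, Ccl5, Tbx21, Ly6c2 and Ccr7, and only for Bach2 do all day 30 arrays lie under the day 10 arrays.

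Naive and central memory genes were called in opposite directions. Dapl1, a transcript of naive and stem-like T cells, measured 10.59, 10.47, 10.29, 10.57 and 10.62 on day 30, against 9.64, 9.39, 9.53, 10.24 and 9.84 on day 10. All day 30 arrays lay above day 10 (0.78 ± 0.18 or 1.72-fold, adjusted p = 0.0106), at the naive mean of 10.56. Bach2, a repressor that restrains effector differentiation, measured 5.38, 5.34, 5.16, 4.83 and 4.95 on day 30, against 6.39, 5.75, 6.17, 5.72 and 5.73 on day 10 (-0.82 ± 0.21, adjusted p = 0.0212), with naive cells at 6.23. The Dapl1 call held in all 10 fits without 1 array and that of Bach2 in 6, and Bach2 lost it after quantile normalization and when only the 10 arrays were fitted.

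The other 25 of 27 measured genes of this list were not called, and its median was -0.27. Its 1 call in each direction is 3.7% of the list, against 1.51% higher and 1.93% lower of all genes. Ccr7, the receptor for lymph node entry, averaged 8.58 ± 0.44 on day 30 and 8.63 ± 0.35 on day 10. Lef1, a transcription factor of naive and central memory cells, averaged 9.12 ± 0.35 on day 30 and 9.28 ± 0.19 on day 10. S1pr1, which lets T cells leave lymph nodes, averaged 8.73 ± 0.25 on day 30 and 9.19 ± 0.33 on day 10 (adjusted p = 0.248). Homing genes as a list had 0 higher and 1 lower call of 36 (2.78%, against 1.93% of all genes). The call was Itgal, the alpha chain of the integrin LFA-1, with day 30 arrays of 8.31, 8.31, 8.39, 8.41 and 8.23, against 9.02, 9.06, 8.92, 8.83 and 8.91 on day 10. The groups were tight and apart (-0.62 ± 0.14, adjusted p = 0.00926).

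Fos, Jund, Zfp36, Zfp36l1 and Dusp1, which belong to the immediate early genes or their relatives, were lower on day 30. AP-1 is the dimer of Fos and Jun proteins that growth signals, T cell receptor signals and cell handling all induce within minutes, and Dusp1 and Zfp36 are induced with it and end the signal, Dusp1 by dephosphorylating MAP kinases and Zfp36 by destabilising cytokine mRNAs. The promoters of Fos, Dusp1 and Zfp36 are shown because these 3 genes were called lower in all 10 fits without 1 array and because the control sites of such genes are textbook cases. The 250 bases before the start site are given 5′ to 3′ on the strand of the gene, from RefSeq on GRCm38.p6, with capitals for each TGACG on either strand (the core of the cAMP response element, bound by CREB and ATF proteins) or for the CArG box (CC, then 6 bases that are A or T, then GG, bound by serum response factor).
Fos: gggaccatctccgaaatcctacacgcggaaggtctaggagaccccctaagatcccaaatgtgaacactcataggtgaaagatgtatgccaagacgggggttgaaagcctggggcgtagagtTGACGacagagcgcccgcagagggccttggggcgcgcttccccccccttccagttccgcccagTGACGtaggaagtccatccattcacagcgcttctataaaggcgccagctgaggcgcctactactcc
Dusp1: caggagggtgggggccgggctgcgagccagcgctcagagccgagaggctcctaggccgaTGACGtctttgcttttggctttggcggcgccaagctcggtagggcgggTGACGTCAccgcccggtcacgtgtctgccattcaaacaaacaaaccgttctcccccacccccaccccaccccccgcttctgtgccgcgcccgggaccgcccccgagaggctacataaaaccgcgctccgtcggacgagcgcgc
Zfp36: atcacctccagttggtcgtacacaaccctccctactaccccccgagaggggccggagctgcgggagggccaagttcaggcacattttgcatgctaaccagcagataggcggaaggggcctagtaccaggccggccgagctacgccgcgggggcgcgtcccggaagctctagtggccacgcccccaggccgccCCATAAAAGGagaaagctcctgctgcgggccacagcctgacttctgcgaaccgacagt
The Fos stretch lies at chr12:85473640-85473889 on the plus strand, that of Dusp1 at chr17:26508473-26508722 and that of Zfp36 at chr7:28379229-28379478, both on the minus strand. Fos held 2 matches to TGACG, Dusp1 held 3, of which the last pair overlaps in the palindrome TGACGTCA, and Zfp36 held the 1 CArG box. TGACG occurred in 11 of 24 promoters of the measured AP-1 and handling genes (45.8%), against 29.3% of 6361 promoters of genes that reached a mean of 5 and 17.8% of all 32851 promoters. The CArG box occurred in 1 of the 24 (4.17%) and in 1.47% of all. The AP-1 and handling list holds Fos and Zfp36 but not Dusp1, and 18 of its 23 measured genes were not called. Its shares therefore do not describe the 3 genes shown. A match of letters is a description and does not show that a factor binds there.

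Fos measured 4.01, 3.57, 3.63, 3.47 and 3.87 on day 30, against 3.63, 5.99, 5.34, 5.96 and 5.32 on day 10. All but 1 of the day 10 arrays stood above every day 30 array, and day 10 replicate 1 was as low as day 30. The difference was -1.54 ± 0.33, or 2.9-fold lower (adjusted p = 0.00651 by limma). Dusp1 followed the same pattern, with 5.25, 6.08, 5.86, 5.77 and 6.0 on day 30, against 5.78, 7.91, 7.10, 7.36 and 6.59 on day 10 (-1.16 ± 0.26, adjusted p = 0.00873). Zfp36 was separate in every array, at 9.66, 9.96, 9.43, 9.89 and 9.66 on day 30, against 10.29, 10.69, 10.55, 10.47 and 10.54 on day 10 (-0.79 ± 0.15, adjusted p = 0.00169). All 3 calls held in the 10 fits without 1 array, though that of Dusp1 was lost when only these 10 arrays were fitted.

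Jund, the AP-1 member that resting cells also make, fell as well, to 8.33 ± 0.53 on day 30, against 9.33 ± 0.47 on day 10 (-1.00 ± 0.25, adjusted p = 0.0164, 9 of 10 fits, with adjusted p = 0.0604 without day 10 replicate 3). So did Zfp36l1, a relative of Zfp36 (-0.80 ± 0.23, adjusted p = 0.0426, 2 of 10 fits). Of 23 measured AP-1 and handling stress genes, 4 were called lower, 17.4% against 1.93% of all genes, and 1 higher, 4.35% against 1.51%. A mean of 5 was reached by 18 of the 23, and the level classes from 5 up had 4.53% to 9.25% lower calls. The median of the list was -0.46, or -0.42 after quantile normalization, and 21 of 23 had a negative value under either scaling. With low antigen the median of the list was 0.08 and with int antigen 0.14. Jun, the partner of Fos, averaged 5.59 ± 0.92 on day 30 and 6.43 ± 1.15 on day 10, with overlapping arrays and no call (-0.84 ± 0.51, adjusted p = 0.395). The higher call was Hspe1, the mitochondrial chaperonin Hsp10 (0.41 ± 0.12, adjusted p = 0.0414, 4 of 10 fits), a folding factor and not an immediate early gene.

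The heat shock genes, which respond to handling and warmth, varied widely among arrays. Hspa1a measured 2.92, 4.07, 4.39, 3.61 and 5.20 on day 30, against 4.22, 6.22, 6.0, 7.22 and 5.85 on day 10 (adjusted p = 0.0869). Day 10 replicate 1 was the lowest of its group for Hspa1a, for Jun (4.57, against 6.23 to 7.58 in the other day 10 arrays), for Fos and for Dusp1. The part of handling in the AP-1 values was not tested. Of 33 measured genes that T cell receptor signals induce, the list that holds Dusp1, 1 was called higher and 1, Dusp1, lower, and the median was -0.06, or 0.09 after quantile normalization. Each call is 3.03% of that list, against 1.51% higher and 1.93% lower of all genes. Nr4a1, which reports receptor signals, averaged 6.13 ± 0.23 on day 30 and 5.56 ± 0.48 on day 10 (0.57 ± 0.28, adjusted p = 0.264). Egr1 averaged 6.32 ± 0.19 on day 30 and 6.46 ± 0.41 on day 10, Egr2 6.12 ± 0.32 on day 30 and 6.01 ± 0.41 on day 10, and Cd69 7.08 ± 0.35 on day 30 and 7.57 ± 0.31 on day 10, all without a call.

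**Figure D3:**
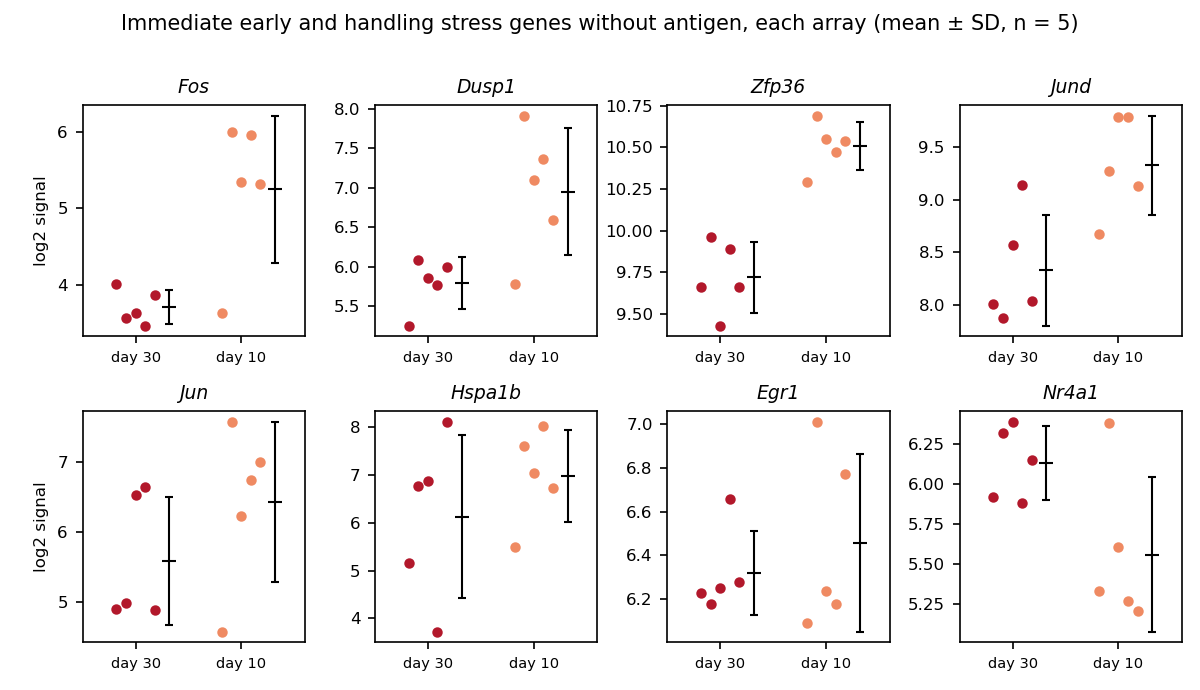
Log2 signal (vertical axis) of AP-1, feedback, heat shock and receptor-induced genes in each none array, day 30 left of day 10, with mean and SD of 5 arrays. Zfp36 is apart in all arrays, Fos and Dusp1 in all but day 10 replicate 1, and Egr1 and Nr4a1 overlap.

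Parts of the T cell receptor machinery were also lower on day 30. Dgka, a kinase that removes diacylglycerol and so dampens receptor signals, measured 9.96, 9.96, 9.80, 9.90 and 10.22 on day 30, against 10.91, 10.68, 10.79, 10.28 and 10.58 on day 10 (-0.68 ± 0.14, adjusted p = 0.00587). Cd3e, the epsilon chain of the receptor complex, was lower in each array, at 10.59 ± 0.17 on day 30 and 11.08 ± 0.13 on day 10 (-0.49 ± 0.12, adjusted p = 0.0141). Fyn, a kinase next to the receptor, was lower by -0.65 ± 0.17 (adjusted p = 0.0257). The calls held in 10, 9 and 4 of 10 fits without 1 array, and that of Cd3e had adjusted p = 0.0503 without day 30 replicate 5. These are 3 of 29 measured genes of the receptor complex and proximal signalling (10.3% lower, against 1.93% of all), 0 were higher, and the median was -0.26. Of the 29, 27 reached a mean of 5, and lower calls made up 6.26% of genes at levels 8 to 10 and 9.25% at 10 and over. The count is thus close to the share of bright genes. Cd3d and Lat were not called. Cd3d, the delta chain, averaged 11.17 ± 0.06 on day 30 and 10.93 ± 0.20 on day 10, and Lat, the adaptor of the pathway, 11.09 ± 0.09 on day 30 and 11.13 ± 0.10 on day 10.

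GIMAP genes, which encode GTPases that lymphocytes need for survival, gave 3 lower calls among 8 (37.5%, against 1.93% of all). All 8 reached a mean of 5, and the level classes from 5 up had 4.53% to 9.25% lower calls. Gimap3 fell most, with 8.62, 8.30, 8.80, 9.09 and 8.00 on day 30, against 9.94, 9.49, 10.00, 9.32 and 9.85 on day 10 (-1.16 ± 0.19, adjusted p = 0.000342). All day 30 arrays lay under day 10, and the call held in all 10 fits. Gimap4 and Gimap6 held in 5 and 4 of the 10 fits and lost their calls when only these 10 arrays were fitted (-0.34 ± 0.09 and -0.34 ± 0.10, adjusted p = 0.0286 and 0.0374), and Gimap5 averaged 8.50 ± 0.28 on day 30 and 8.27 ± 0.27 on day 10.

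Maf, a transcription factor of follicular helper and IL-10 producing T cells, measured 6.62, 7.94, 5.49, 8.42 and 6.36 on day 30, against 8.62, 9.10, 9.05, 7.95 and 9.35 on day 10. The day 30 arrays spread over almost 3 units and 1 of them, replicate 4, lay above the lowest day 10 array (-1.85 ± 0.46, adjusted p = 0.0175, 7 of 10 fits, lost without day 30 replicate 3 or 5 or day 10 replicate 5, at up to adjusted p = 0.0627). A second probe set of Maf differed by -0.66 at a lower level. Naive cells averaged 3.66. Low antigen gave 8.99 on both days, but the difference between the day changes did not pass its test (adjusted p = 0.727). Maf was the only call among 17 measured follicular helper genes (5.88% lower, against 1.93% of all genes). Bcl6, the factor that defines these cells, averaged 6.20 ± 0.42 on day 30 and 5.75 ± 0.45 on day 10, and Cxcr5, their homing receptor, 7.90 ± 0.50 on day 30 and 8.19 ± 0.21 on day 10. Among 19 Treg and Tr1 genes, Maf was lower and Tnfrsf18 (the costimulatory receptor GITR) higher, with day 30 arrays from 7.13 to 8.36, against 6.12 to 7.01 on day 10 (0.81 ± 0.19, adjusted p = 0.00993). Each call is 5.26% of that list, against 1.93% lower and 1.51% higher of all genes. Foxp3 averaged 3.74 ± 0.29 on day 30 and 3.81 ± 0.34 on day 10.

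Cycling transcripts were few on both days. Top2a, the topoisomerase of S and G2 phase, measured 3.32, 3.67, 3.76, 3.68 and 3.18 on day 30, against 4.47, 4.20, 4.32, 3.84 and 4.32 on day 10 (-0.71 ± 0.20, adjusted p = 0.036), and naive cells averaged 5.32. Mki67, which marks all cycling cells, averaged 3.38 ± 0.45 on day 30 and 3.61 ± 0.29 on day 10 (adjusted p = 0.711). Of 62 measured cell cycle genes, 3 were called lower (4.84%, against 1.93% of all genes) and 1 higher (1.61%, against 1.51%). A mean of 5 was reached by 21 of the 62, and the level classes from 5 up had 4.53% to 9.25% lower calls. The lower ones were Top2a, the phosphatase Cdc25b and the maintenance methyltransferase Dnmt1. The higher one was Smc4, a condensin subunit (0.38 ± 0.09, adjusted p = 0.0178). Top2a kept its call in 4 of 10 fits without 1 array, Cdc25b and Dnmt1 in 2 each and Smc4 in 9, with adjusted p = 0.0772 without day 10 replicate 1. In bulk samples fewer cycling cells and less of these transcripts per cell cannot be told apart. Of 34 quiescence and cell cycle inhibitor genes only Btg1, an antiproliferative gene of resting lymphocytes, was called (-0.53 ± 0.14, adjusted p = 0.028, 3 of 10 fits). That is 2.94% called lower, against 1.93% of all genes.

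**Figure D4:**
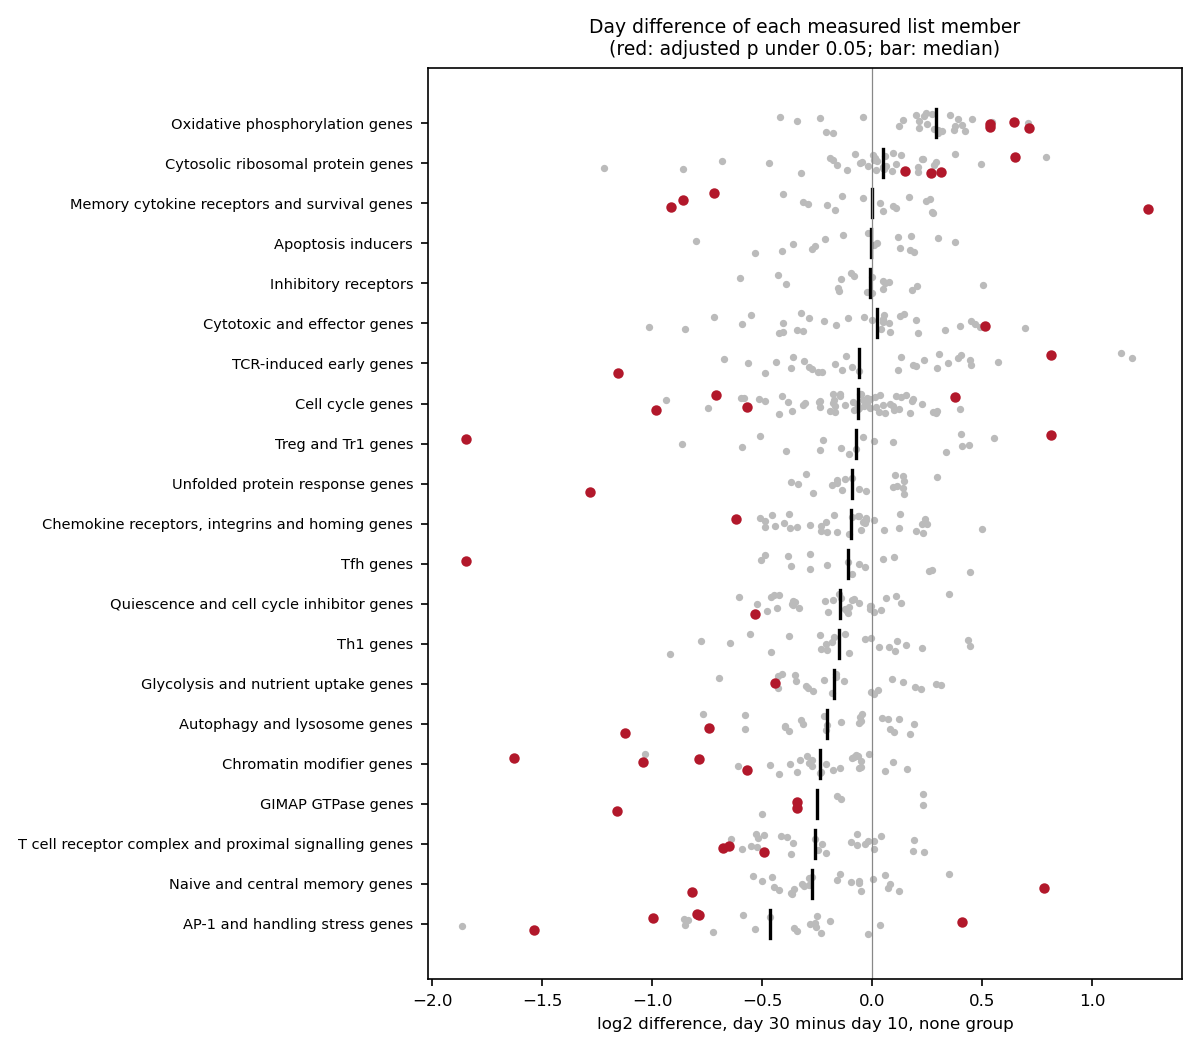
Day difference (log2, day 30 minus day 10, horizontal axis) of each measured member of 21 gene lists (rows); red points passed an adjusted p under 0.05, grey points did not, and a bar marks the median. The median is highest for oxidative phosphorylation genes (0.29) and lowest for AP-1 and handling stress genes (-0.46).

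Some transcripts of the respiratory chain were called higher on day 30. Cox7a2, a subunit of cytochrome c oxidase, measured 10.36, 10.27, 10.01, 9.91 and 10.00 on day 30, against 9.05, 9.46, 9.12, 9.69 and 9.66 on day 10, with no overlap (0.71 ± 0.13, adjusted p = 0.00164). Of 32 measured oxidative phosphorylation genes, 4 were called higher (12.5%, against 1.51% of all) and 0 lower, 28 were not called, and 26 of 32 had a positive value. Of the 32, 31 reached a mean of 5. Higher calls were more common among bright genes, at 2.52% for levels 7 to 8, 6.63% for 8 to 10 and 12.7% for 10 and over. The median of the list was 0.29, or 0.38 after quantile normalization, and it was 0.24 with low and 0.26 with int antigen. The others called were Ndufa9 and Ndufb8 of complex I and Cox7b of cytochrome c oxidase, each in 3 of 10 fits without 1 array. Members of the list with a negative value included Sdha, the catalytic subunit of complex II (-0.24) and Ndufs1 (-0.34), neither called.

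Whole families were then counted, a step added after values had been seen. Of 42 measured genes named Nduf, complex I and its assembly, 9 were called higher (21.4%, against 1.51% of all) and 0 lower. Their median was 0.31. Higher calls made up 2.52% of genes at levels 7 to 8, 6.63% at 8 to 10 and 12.7% at 10 and over, and 37 of the 42 reached a mean of 5. Ndufa6 measured 10.26, 9.95, 10.33, 9.84 and 10.23 on day 30, against 9.28, 9.05, 9.43, 9.55 and 9.45 on day 10 (0.77 ± 0.15, adjusted p = 0.00199), and Ndufa3 was higher by 0.71 ± 0.13 (adjusted p = 0.00116). Of 71 mitochondrial ribosomal protein genes, 10 were called higher (14.1%), 0 lower and 60 were positive, with a median of 0.29. Mrpl36 measured 7.80, 7.93, 7.96, 7.64 and 7.64 on day 30, against 6.70, 6.86, 6.44, 6.55 and 6.91 on day 10 (1.10 ± 0.19, adjusted p = 0.000604), and Mrpl52 was higher by 0.81 ± 0.12 (adjusted p = 0.000122). Uqcc3, an assembly factor of complex III (1.06 ± 0.19, adjusted p = 0.00116), and Chchd10, a protein of the space between the mitochondrial membranes (1.28 ± 0.23, adjusted p = 0.00103), rose by more than 1. All 6 genes named here held in all 10 fits.

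Cytosolic ribosomal proteins are among the brightest probe sets, and the median of the family was small. Rps26 measured 11.69, 11.74, 11.69, 11.62 and 11.66 on day 30, against 10.63, 11.06, 11.01, 11.16 and 11.15 on day 10 (0.68 ± 0.09, adjusted p = 1.11e-05). Rpl13 was higher by 0.27 ± 0.04, at 12.40 ± 0.03 on day 30 and 12.13 ± 0.05 on day 10 (adjusted p = 0.000124). In the list of 40 measured genes 4 were called higher (10%) and 0 lower, with a median of 0.05. In the whole family of 67 the counts were 10 (14.9%) and 0, with a median of 0.09. Over all genes 1.51% were called higher, and 12.7% of those at level 10 and over. Proteasome genes gave 3 higher (6.12%) and 0 lower of 49. Near-identical copies of ribosomal protein genes can share probes, so single values of this family are uncertain, and Rps26 was picked after its values had been seen.

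The day difference went with the span of a gene. Among 5988 protein-coding genes that reached a mean of 5 and had a span in RefSeq, the shortest 1497 (up to 10.5 kb) had a median of 0.01 with 86 higher and 64 lower calls. The longest 1497 (from 52.4 kb) had a median of -0.24 with 9 higher and 109 lower calls. Spearman's rho between span and difference was -0.226, a description across genes that share the same arrays. The medians of the shortest and the longest set were -0.02 and -0.32 with low antigen and 0.09 and -0.24 with int antigen. A span of at most 10.5 kb was found for 27 of 42 Nduf genes, 49 of 71 mitochondrial ribosomal, 65 of 65 cytosolic ribosomal genes with a span and 22 of 49 proteasome genes. The part of span or of RNA integrity in the values of these families was not tested.

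Glycolysis genes gave 0 higher and 1 lower call of 24 (4.17%, against 1.93% of all genes). The call was Pkm, which encodes the last enzyme of glycolysis (-0.44 ± 0.13, adjusted p = 0.0486, 1 of 10 fits). Fatty acid oxidation genes (25 measured) and cholesterol synthesis genes (18) had no call, against 3.43% of all genes, and had medians of -0.15 and -0.18. Over their 18 and 10 members that reached a mean of 5 the medians were -0.132 and -0.255, against -0.142 over all such genes. Autophagy genes gave 0 higher and 2 lower of 25 (8%, against 1.93% of all genes). A mean of 5 was reached by 20 of the 25, and the level classes from 5 up had 4.53% to 9.25% lower calls. The lower calls were Atg7, the activating enzyme of the conjugation that builds autophagosomes (-0.74 ± 0.20, adjusted p = 0.0293, 5 of 10 fits), and Atg13, of the complex that starts them (-1.12 ± 0.28, adjusted p = 0.0171, 8 of 10 fits).

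Among 31 measured chromatin modifiers, 4 were called lower (12.9%, against 1.93% of all), 0 higher and 27 not at all. A mean of 5 was reached by 29 of the 31, and the level classes from 5 up had 4.53% to 9.25% lower calls. Kmt2d, a histone methyltransferase of enhancers, measured 6.29, 6.32, 6.70, 6.01 and 5.29 on day 30, against 8.11, 7.86, 7.84, 7.12 and 7.81 on day 10, with a gap between the groups (-1.63 ± 0.26, adjusted p = 0.00029). Kmt2a, its relative at promoters, was lower by -0.79 ± 0.20 (adjusted p = 0.019), and Hdac7, a histone deacetylase prominent in T cells, by -1.04 ± 0.26 (adjusted p = 0.0178). The last of the 4 was Dnmt1. The median of the list was -0.24, or -0.16 after quantile normalization. Over the 29 that reached a mean of 5 it was -0.272 and -0.168, against -0.142 and -0.03 over all such genes. The members with a positive value were 3 of the 31 as deposited and 10 after that normalization. The calls of Kmt2d, Kmt2a and Hdac7 held in 10, 8 and 7 of 10 fits, and those of Kmt2a and Hdac7 were lost without day 10 replicate 1 among others, at up to adjusted p = 0.075 and adjusted p = 0.0761.

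Single calls came from the stress and interferon lists. Atf6, a sensor of unfolded proteins in the endoplasmic reticulum, averaged 4.50 ± 0.54 on day 30 and 5.78 ± 0.43 on day 10 (-1.28 ± 0.24, adjusted p = 0.00175), the only call among 21 such genes. Oas2, an antiviral enzyme induced by interferon, averaged 4.94 ± 0.54 on day 30 and 6.16 ± 0.35 on day 10 (-1.22 ± 0.29, adjusted p = 0.0146), the only call among 34 interferon-stimulated genes, whose median was -0.04, or 0.05 after quantile normalization. The single lower calls are 4.76% of the stress list and 2.94% of the interferon list, against 1.93% of all genes.

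Outside the lists, Kcnma1, Gabbr1 and Tspan14 were among the genes called lower with the largest differences. Kcnma1, the pore subunit of the calcium-activated BK potassium channel, measured 10.69, 9.89, 10.03, 10.48 and 10.86 on day 30, against 12.44, 12.53, 12.56, 12.27 and 12.45 on day 10. The groups were far apart (-2.06 ± 0.20 or 4.17-fold lower, adjusted p = 3.25e-09). Its other probe set lay near the floor, at 2.74 on day 30 and 2.81 on day 10, so the probe sets disagree and the transcript that the bright one reads is uncertain. Gabbr1, a subunit of the GABA-B receptor, was lower by -1.67 ± 0.24 (adjusted p = 8.63e-05), and Tspan14, a tetraspanin that escorts the protease ADAM10, by -1.84 ± 0.30 (adjusted p = 0.000328).

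Higher on day 30 were Klk1b27, a kallikrein protease (2.61 ± 0.47, adjusted p = 0.00114), Bmyc, a Myc relative (1.46 ± 0.32, adjusted p = 0.00739), and Vkorc1, the vitamin K epoxide reductase (1.34 ± 0.27, adjusted p = 0.00274). Ifi30, a lysosomal thiol reductase of antigen processing, rose as well (1.32 ± 0.29, adjusted p = 0.00765). Klk1b27 measured 3.34, 5.52, 6.69, 5.58 and 5.91 on day 30, against 2.40, 3.30, 2.77, 2.79 and 2.72 on day 10. It was also higher with low (2.51) and int antigen (3.64, adjusted p = 3.34e-05). The day 30 off group, whose antigen ended on day 10, averaged 3.34 ± 0.74 for Klk1b27, and naive cells 3.02 ± 0.49. All 7 of these genes kept their call in all 10 fits.

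Some noncoding RNAs, picked after their values had been seen, had large differences. Rpph1, the RNA of ribonuclease P, measured 8.70, 9.09, 8.56, 8.66 and 8.49 on day 30, against 11.01, 11.07, 11.02, 11.94 and 11.57 on day 10 (-2.62 ± 0.19 or 6.16-fold lower, adjusted p = 6.57e-13). Terc, the telomerase RNA, averaged 4.56 ± 0.40 on day 30 and 7.38 ± 1.40 on day 10 (-2.82 ± 0.49, adjusted p = 0.00067). Neat1, the RNA that builds paraspeckles, averaged 6.0 ± 0.30 on day 30 and 7.55 ± 0.37 on day 10 (-1.55 ± 0.28, adjusted p = 0.0014). Rpph1 was called lower also with low (-2.38) and int antigen (-1.98). It stood at 8.46 in the day 30 off group, whose antigen ended on day 10, at 11.38 in the day 10 high group, whose mice present the peptide constantly, and at 11.29 in naive cells, so that its mean was lower in every day 30 group than in any day 10 group.

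Tests of the day change itself against the antigen groups separated few genes. The day change without antigen differed from that with low antigen for 7 genes (0.0316%, 0.0135% positive and 0.018% negative) and from that with int antigen for 20 (0.0902%, 0.0451% in each direction). Both changes span the same sort series. Dapl1 passed both tests: it was 0.78 higher on day 30 without antigen, and its day difference was -0.77 with low and -0.68 with int antigen (difference of changes 1.55, adjusted p = 0.00194, and 1.46, adjusted p = 0.00484). Atp1b1, the beta subunit of the sodium pump, measured 5.73, 6.21, 5.29, 5.69 and 6.11 on day 30, against 4.65, 4.89, 4.93, 4.34 and 4.82 on day 10 without antigen (1.08 ± 0.24, adjusted p = 0.0082). With low antigen its day difference was -0.93, and the changes differed by 2.01 (adjusted p = 0.00219) from low and by 1.68 (adjusted p = 0.0241) from int. Naive cells averaged 7.25.

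Sytl2, a Rab27 effector in granule transport, averaged 5.36 ± 0.39 on day 30 and 4.13 ± 0.40 on day 10 without antigen (1.23 ± 0.24, adjusted p = 0.0021), and the change differed from low by 1.72 (adjusted p = 0.0236). Kcnma1 was lower on day 30 without antigen, while the low groups averaged 12.21 on day 30 and 12.55 on day 10 and the int groups 12.15 and 12.48. Its changes differed by -1.71 (adjusted p = 0.00194) and -1.72 (adjusted p = 0.00475). In the day 30 off group Kcnma1 averaged 12.36 and the Sytl2 arrays ran from 3.02 to 4.11. Dapl1 averaged 9.75 there and Atp1b1 5.08. Gabbr1 and Rabif, a chaperone of Rab GTPases, were lower on day 30 without antigen and differed from int by -1.82 (adjusted p = 0.0097) and -2.12 (adjusted p = 0.00543). Fos differed from int by -2.33 (adjusted p = 0.0241) and Hspa1a by -5.29 (adjusted p = 0.00484). Hspa1a was not itself called without antigen (-1.86), and with int antigen it was 3.42 higher on day 30. The int arrays averaged 6.22 ± 2.12 on day 30 and 2.80 ± 0.26 on day 10 for Hspa1a, and 4.54 ± 0.67 and 3.74 ± 0.24 for Fos. Both day 10 int means thus lay under 4.

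Mef2c, Gucy1a1 and Nt5e had similar means on both days without antigen. Mef2c, a transcription factor, averaged 3.58 ± 0.21 on day 30 and 3.59 ± 0.41 on day 10 without antigen, and with low antigen it was 3.56 higher on day 30 (difference of changes -3.57, adjusted p = 1.13e-11). Gucy1a1, a subunit of the nitric oxide receptor guanylate cyclase, averaged 3.30 ± 0.42 on day 30 and 3.19 ± 0.23 on day 10 without antigen, and the changes differed by -3.10 (adjusted p = 0.00194). Nt5e, the ectoenzyme CD73, averaged 5.66 ± 0.63 on day 30 and 5.66 ± 0.42 on day 10 without antigen, and its change differed from that with low antigen by -2.09 (adjusted p = 0.0316). Against int antigen, Il6st, the signal chain of the IL-6 receptor (1.07), Rgs10, a brake on G proteins (1.03), and Smc4 (0.75) differed, each at adjusted p = 0.00484, and Gzmk by -2.73 (adjusted p = 0.0222). Of these Smc4 was itself called higher without antigen (0.38), and Gzmk was not called there (-1.01). On leaving out 1 array in turn, the low differences of Nt5e and Sytl2 held in 8 and 12 of 20 fits and the int differences of Atp1b1, Fos and Gzmk in 11, 10 and 14 of 19. The other differences named here held in every such fit.

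**Figure D5:**
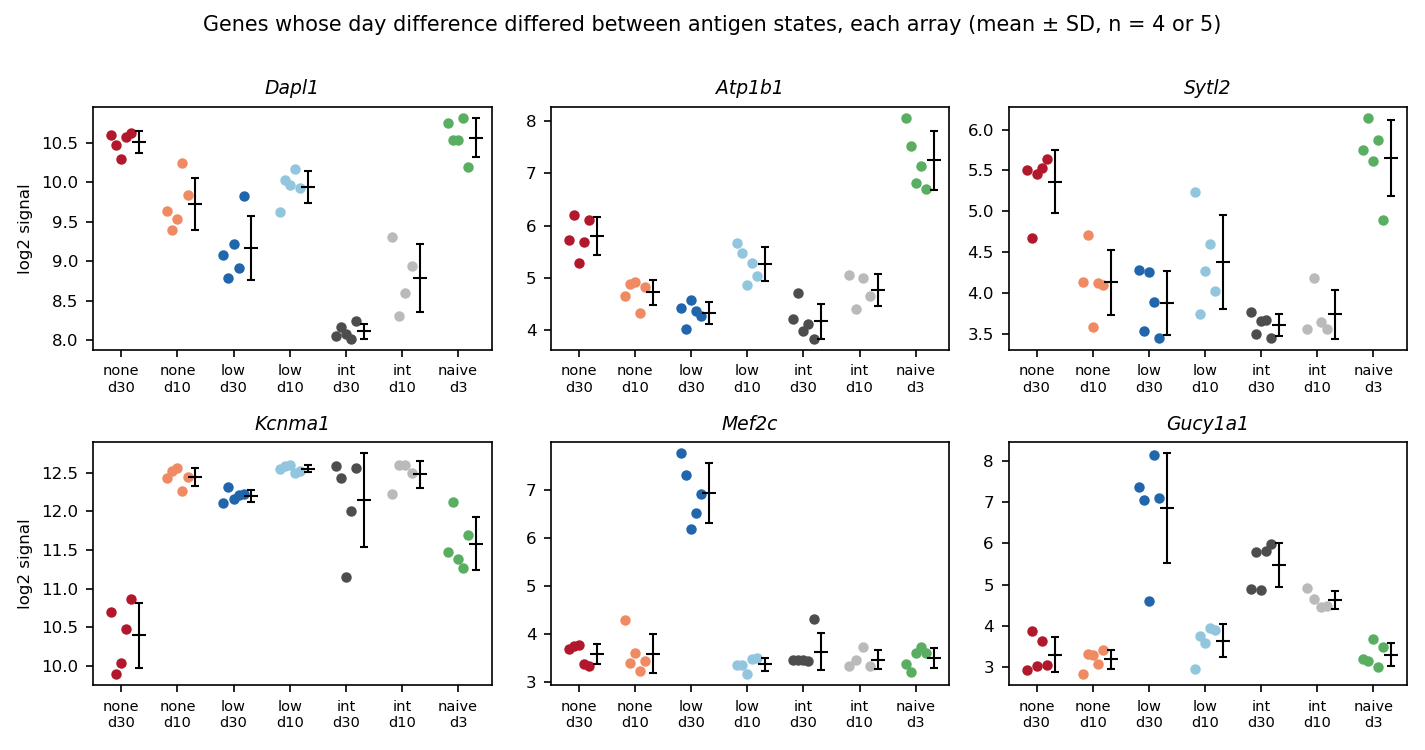
Log2 signal (vertical axis) of 6 genes whose day change differed between antigen states, in each array of the none, low and int groups, day 30 left of day 10 for each, and of naive cells at day 3, with mean and SD of 4 or 5 arrays. In the none groups Dapl1, Atp1b1 and Sytl2 have a higher mean on day 30, in the low and int groups a lower one, while Kcnma1 is lowest in day 30 none, and Mef2c and Gucy1a1 have similar means on both days in the none groups.

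Markers of other cells were at or near the floor for most lists. No B cell (14 measured), erythroid and platelet (7) or stromal and endothelial marker (12) was called. Of all genes 3.43% were called, so counts of 0 in lists this short say little. The B cell markers Cd79a and Ms4a1 averaged 3.70 and 2.82 on day 30 and 3.43 and 2.63 on day 10, and summed on the linear scale the list ran from 130 to 159 on day 30 and from 124 to 189 on day 10. Myeloid markers gave 1 higher call (3.45%, against 1.51% of all genes) and 2 lower calls (6.9%, against 1.93%) of 29. Their sum ran from 1180 to 1620 on day 30 and from 1020 to 1670 on day 10. The lower calls were S100a8 and S100a9, the calprotectin of neutrophils. S100a9 measured 3.39, 3.15, 3.81, 3.49 and 4.02 on day 30, against 4.95, 4.17, 7.74, 7.97 and 7.35 on day 10 (-2.86 ± 0.67, adjusted p = 0.0117), so that 3 day 10 arrays carried it. The macrophage markers Lyz2 and Csf1r averaged 2.84 and 3.12 on day 30 and 2.94 and 3.15 on day 10. Cst3, the protease inhibitor cystatin C, was higher, at 8.71 ± 0.29 on day 30 and 7.72 ± 0.46 on day 10 (0.99 ± 0.23, adjusted p = 0.0132, 9 of 10 fits, with adjusted p = 0.0544 without day 10 replicate 1). Of 6 measured NK, CD8 and gamma-delta markers, Ncr1, an NK cell receptor, was called (0.52 ± 0.14, adjusted p = 0.0291, 4 of 10 fits), at 3.29 ± 0.35 on day 30 and 2.77 ± 0.06 on day 10. That single call is 16.7% of this short list, against 1.51% higher of all genes. Among the naive arrays the myeloid sum ran from 1200 to 5600 and the B cell sum from 136 to 854, both highest in replicate 3. The part of other cells in the results above, the naive levels included, was not tested.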

How the data were processed

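RNA of sorted cells (0.1 to 30 ng) was amplified and hybridised to 1-colour mouse arrays, as the labels' protocols state, with 1 array for each sample. The deposited table holds log2 signals of 41345 probe sets that the authors had already normalized. That they are log2 was judged from their range (1.46 to 13.87), array medians ran from 3.28 to 3.44, and the normalization is not given in the sources used here. On arrays the number of samples limits the precision.

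Names came from the platform annotation: 23521 probe sets had 1 gene symbol, 1814 several and 16010 none, and only the first were used. Each of 22180 genes was read by its probe set with the highest mean over the 43 arrays, and 21994 symbols matched RefSeq. A linear model with 9 groups was fitted to all 43 arrays, which share 1 estimate of the spread, with limma 3.58.1 (R 4.3.3, lmFit and eBayes with a variance trend). Adjusted p-values are Benjamini-Hochberg over all genes, two-sided. Changes between antigen states were tested as differences of day differences in the same fit. The gene lists, the members and the rules for naming genes were chosen with earlier results of these data known. Named were the 20 called genes with the largest difference in each direction, a fixed set of T cell genes and sample checks, up to 6 called members per list and direction (the 2 with the smallest p where fewer were called), up to 8 genes per direction for each difference of day changes, and marker genes whose level in an array stood apart. Those genes were candidates, and the text names a part of them. Gene families, gene span, some noncoding RNAs and a setting without 4 arrays were added after values had been seen.

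Same-numbered arrays of the groups had correlations of their deviations from -0.067 to 0.03, so the numbers were not taken to pair samples. No pair of arrays was identical (highest correlation 0.9893). In simulated data for the day comparison over 22180 genes, planted changes of 0.5, 1, 1.5 and 2 on the log2 scale were recovered in 26%, 80%, 98% and 100% of 50 genes each. Alternatives covered the samples in the fit, variance trend, robust moderation, between-array scaling, array weights, dim genes, probe set choice, a replicate block and leaving out each array.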

Additional observations from a re-analysis of the deposited data

Results flagged for a closer look

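Among 109 named genes and 218 groups of 5 arrays, 13 had 1 array apart from the rest by Dixon's test at 95%, which chance does in about 1 of 20 groups. On day 30, Il21r was low in replicate 2 (5.83, against 7.15 to 7.46 in the other arrays) and Sytl2 in the same array (4.68, against 5.46 to 5.64). Replicate 4 of day 30 was high for Tnfrsf18 (8.36, against 7.13 to 7.34) and Egr1 (6.66, against 6.18 to 6.28). The same array was low for Atg7 (5.02) and Rpl13 (12.35). Cd69, an early activation marker, was high in day 30 replicate 5 (7.69, against 6.84 to 6.98), and Btg1 in day 30 replicate 3 (9.07). On day 10, replicate 1 was low for Fos (3.63, against 5.32 to 5.99), Cox7b (8.7, against 9.55 to 9.84) and Rps26 (10.63, against 11.01 to 11.16). S1pr1 was low in day 10 replicate 4 (8.61, against 9.26 to 9.44), and Ifng was high in day 10 replicate 2 (5.65, against 4.16 to 4.42).

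The day difference without antigen and that with low antigen differed by test for Dapl1 (1.55), Atp1b1 (2.01), Sytl2 (1.72), Kcnma1 (-1.71), Mef2c (-3.57), Gucy1a1 (-3.10) and Nt5e (-2.09). Against int antigen it differed for Dapl1 (1.46), Atp1b1 (1.68), Il6st (1.07), Rgs10 (1.03) and Smc4 (0.75) in the positive direction. In the negative direction it differed for Kcnma1 (-1.72), Gabbr1 (-1.82), Rabif (-2.12), Fos (-2.33), Gzmk (-2.73) and Hspa1a (-5.29).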

How the results depend on the processing

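With only the compared groups in the fit, the day comparison without antigen called 353 genes (120 higher, 233 lower), and the differences of day changes against low and int called 16 and 10. Quantile normalization left 547 day calls without antigen (303 higher, 244 lower) and 385 with low antigen. Array quality weights gave 1006 calls without antigen (447 higher, 559 lower), 1341 with low and 335 with int antigen and 13 differences against low, and restricting the test to genes with a log2 mean of at least 5 gave 887 (256 higher, 631 lower), 976, 385 and 18. Without 4 arrays that stood apart, a setting chosen after seeing the data, int antigen gave 262 calls and the none comparison 1061. Requiring a 2-fold difference left 154 none calls, and an adjusted p under 0.1 gave 1470. On leaving out 1 array, counts ran from 366 to 867 for none, from 281 to 709 for low, from 71 to 145 for int, and from 5 to 10 and 14 to 25 for the differences against low and int. The replicate block gave 727 none, 633 low and 167 int calls and 9 and 25 differences. The cause of these shifts was not tested. No named gene or list changed sign past its threshold. Of 99 called genes among 185 candidates, 54 kept the call in all 10 fits without 1 array and 59 in all other settings. Beside the genes said above to lose it, the fit of only the compared groups also ended the calls of Hspe1, Fyn, Btg1, Cdc25b and Dnmt1. The same held for Klrb1b, Ncr1, Cox7b, Ndufa9, Atg7, Atg13, Hdac7 and Cd86, among others. The 5 arrays a group limit what can be seen: planted changes of 0.5 were mostly missed.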

Other observations

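Several genes outside the lists were called lower on day 30 without antigen. Leng8 averaged 6.99 ± 0.36 on day 30 and 8.50 ± 0.28 on day 10 (-1.51 ± 0.22, adjusted p = 0.000102 by limma). Gga3, a clathrin adaptor between the Golgi and endosomes, averaged 4.62 ± 0.53 on day 30 and 6.10 ± 0.41 on day 10 (-1.48 ± 0.29, adjusted p = 0.00255). Chtf8, a subunit of an alternative clamp loader of DNA replication, averaged 7.40 ± 0.92 on day 30 and 8.95 ± 0.18 on day 10 (-1.55 ± 0.26, adjusted p = 0.000372). For all 3 the arrays of the groups did not overlap.

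Higher on day 30 were Hscb, a mitochondrial co-chaperone of iron-sulfur cluster assembly, at 7.87 ± 0.21 on day 30 and 6.63 ± 0.12 on day 10 (1.25 ± 0.27, adjusted p = 0.00765), and Cog6, a subunit of a Golgi tethering complex, at 7.21 ± 0.22 on day 30 and 5.99 ± 0.31 on day 10 (1.22 ± 0.24, adjusted p = 0.00221). Fbxw5, a substrate receptor of a ubiquitin ligase, averaged 8.97 ± 0.25 on day 30 and 7.67 ± 0.62 on day 10 (1.30 ± 0.24, adjusted p = 0.00128). Cog6 and Fbxw5 lost their calls when the probe sets of a gene were averaged. Cd86, a ligand of CD28 best known from antigen-presenting cells, averaged 4.94 ± 0.83 on day 30 and 3.59 ± 0.58 on day 10 (1.34 ± 0.32, adjusted p = 0.0118), with overlapping arrays and 9 of 10 fits without 1 array. Pdk1, a brake on entry of pyruvate into mitochondria, averaged 8.12 ± 0.32 on day 30 and 7.03 ± 0.63 on day 10 (1.09 ± 0.31, adjusted p = 0.0372, 2 of 10 fits).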
